A study of Rattus norvegicus with 4 samples.

Results

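Cardiac splicing regulators are RNA-binding proteins that decide which exons of heart muscle transcripts are kept. They were represented here by 9 genes, *Rbm20*, *Rbm24*, *Rbfox1*, *Rbfox2*, *Mbnl1*, *Mbnl2*, *Celf1*, *Celf2* and *Ptbp1*, chosen by name among the 15731 genes of the deposited expression values. Each symbol was found once. RNA came from cultured ventricular cardiomyocytes of Wistar rats, wild type and 1 day old, that had been transfected with a mimic of one human miRNA of the miR-106b/25 cluster, either miR-25 (hsa-miR-25-3p), miR-93 (hsa-miR-93-5p) or miR-106b (hsa-miR-106b-5p), or with the nematode miRNA cel-miR-67 as control. RNA was harvested 72 h after transfection, and the dose is given as 25 nM in one place and 25 mM in others. The cultures had been pre-plated on plastic to remove other cells. Each mimic gave 1 library, so no difference reported here has a replicate check, and no test between conditions could be made. All 3 comparisons with the control use the same cel-miR-67 library.

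These regulators bind short motifs in or near alternative exons. RBM20 represses exons of titin and controls those of several calcium-handling transcripts, and its mutation causes dilated cardiomyopathy. RBM24 enhances muscle exons and is needed for sarcomere assembly. MBNL proteins favour the exon patterns of adult muscle, CELF proteins favour fetal patterns and oppose MBNL on shared exons, RBFOX proteins enhance or repress exons depending on where they bind, and PTBP1 is a broadly expressed repressor of tissue-specific exons. The values below are levels of whole genes and hold no information on which exons were used.

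The mature sequences of the rat cluster members are shown because the seed, the stretch by which a miRNA pairs with its targets, divides the mimics into 2 kinds. They are taken from RefSeq on build GRCr8, are written 5′ to 3′, and carry the seed (bases 2 to 8) in capitals. All 3 lie on the minus strand, at chr12:22157103-22157123, chr12:22156894-22156916 and chr12:22156652-22156673 in the order given. The sequences of the transfected mimics themselves were not used here.
rno-miR-106b-5p: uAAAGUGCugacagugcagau
rno-miR-93-5p: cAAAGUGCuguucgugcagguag
rno-miR-25-3p: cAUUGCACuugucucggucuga
The seeds of miR-106b and miR-93 are identical at 7 of 7 positions, whereas miR-25 matches them at 3 of 7. Target sites in the transcripts of the 9 genes were not analysed here.

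Values are RPKM, the reads on a gene scaled to its length in kilobases and to the size of the library. The library sizes, inferred here from the values, ran from 22674410 reads with cel-miR-67 to 29749467 after miR-106b, and between 60.4% and 66.9% of these fell on the listed genes. The methods of the study name a far smaller number of reads per sample. Of the 10 cardiomyocyte markers examined, 10 exceeded an RPKM of 1.0 in every library, as did 9 of 9 fibroblast and 5 of 5 smooth muscle markers, so transcripts that mark other cell types were present beside those of cardiomyocytes. Endothelial and macrophage markers were scarce, with summed levels between 3.96 and 9.54. The summed cardiomyocyte marker level was 16780 in the control library, 15970 after miR-106b, 13400 after miR-93 and 8743 after miR-25. The smooth muscle sum was 750.8, 692.4, 589.9 and 2056 in the same order, and the fibroblast sum 834.7, 648.3, 750.8 and 334.2. Thus the miR-25 library had 52.1% of the control level of cardiomyocyte markers, 40.0% of that of fibroblast markers and 2.74 times that of smooth muscle markers. Past the 1.3-fold limit used below, 10 of 10 cardiomyocyte markers were lower there, where the share among all tested genes would give 2.26. Of 5 smooth muscle markers 4 were higher and 1 lower, against 0.967 and 1.13 at that share. Of 9 fibroblast markers 7 were lower and 1, *Lum*, was higher, against 2.04 and 1.74, and *Col1a2* and *Col3a1* made up most of the fibroblast sum. After miR-106b and miR-93 alike, 5 of 9 fibroblast markers were lower and none higher. The share among all tested genes would give 1.14 and 1.41 lower and 1.07 and 1.36 higher. Of 10 cardiomyocyte markers 3 were lower and 1 higher after miR-106b, and 4 and 1 after miR-93. That share would give 1.27 and 1.56 lower and 1.19 and 1.51 higher. Whether the makeup of the cultures had a part in the ratios below was not tested for any mimic. In RNA of whole cultures, fewer cells of a type and less RNA per cell cannot be told apart.

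In the control library, *Mbnl2* (ENSRNOG00000010737) and *Rbm20* (ENSRNOG00000014705) stood highest of the 9 genes, with RPKM levels of 42.7 and 39.9, followed by *Celf1* (ENSRNOG00000010379) at 35.5. *Mbnl1* (ENSRNOG00000014076) at 23.2 and *Ptbp1* (ENSRNOG00000010448) at 23.1 could not be ordered, as the 95% exact interval of their ratio, 0.926 to 1.08, includes 1. *Rbm24* (ENSRNOG00000046547) had a level of 19.8. *Rbfox2* (ENSRNOG00000004688) at 14.6 and *Celf2* (ENSRNOG00000023661) at 13.1 could not be ordered either, with an interval of 0.996 to 1.25. *Rbfox1* (ENSRNOG00000002827) was nearly absent, with an RPKM of 0.373 from 43 reads. The 8 other genes stood at or above the level of at least 74.6% of all listed genes. Such intervals cover counting error only, and levels of different genes also depend on the annotated gene lengths.

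**Figure D1:**
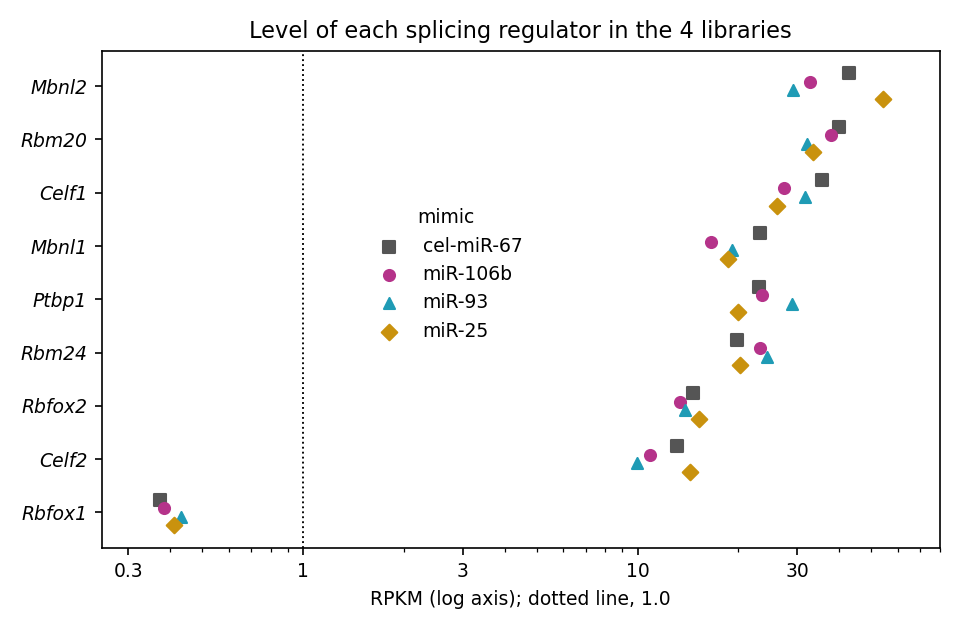
RPKM (log axis) of the 9 splicing regulators in the 4 libraries, 1 point per library and gene, ordered by the control level; the dotted line marks an RPKM of 1.0. *Rbfox1* lay below 0.5 in every library and the 8 others lay between 9.94 and 54.3, with the widest spread for *Mbnl2*.

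The order of the genes differed between libraries at the top. *Rbm20* stood first after miR-106b and miR-93, whereas *Mbnl2* stood first after miR-25, 1.62 times above *Rbm20* (95% exact interval 1.57 to 1.68). With miR-93, *Rbm20* and *Celf1* could not be ordered (ratio 1.01, interval 0.955 to 1.06). *Rbfox1* was the lowest of the 9 genes in each library. Among the 8 well-expressed regulators the highest of the 4 levels exceeded the lowest by a median factor of 1.38, close to the 1.41 found over 9501 genes with RPKM above 2.0 throughout. *Rbfox2* varied least, by a factor of 1.14, and *Mbnl2* most, by 1.87, a range reached by 18.9% of those genes.

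To see which regulators differed from the control, the ratio of RPKM values of each mimic over cel-miR-67 was taken for genes above 1.0 in both libraries, and a gene was counted as higher or lower past 1.3-fold, which is 0.38 on the log2 scale. This left 8 of the 9 genes, all except *Rbfox1*. With miR-106b, 2 of 8 regulators were lower, *Mbnl1* and *Mbnl2*, and none was higher, against 12.7% of all genes lower and 11.9% higher. At these shares 1.02 of 8 genes would be lower and 0.948 higher. With miR-93, 2 of 8 were lower, *Mbnl2* and *Celf2*, and none was higher, against 15.6% lower and 15.1% higher among all genes, or 1.25 and 1.21 genes of 8. With miR-25, *Celf1* alone was lower and none was higher, against 22.6% and 19.3%, or 1.81 and 1.55 genes of 8. A share close to that among all genes is no result about the regulators. The counts stayed within about 1 gene of the share among all genes, except that no regulator was higher after miR-93 or miR-25. No regulator passed a limit of 1.5-fold, and a pseudocount of 1 RPKM took *Mbnl2* out of the miR-106b count and *Celf2* out of the miR-93 count. The median log2 ratio of the 8 genes was -0.19 after miR-106b, -0.22 after miR-93 and -0.09 after miR-25, and over all tested genes it was -0.0033, -0.0018 and -0.0123.

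**Figure D2:**
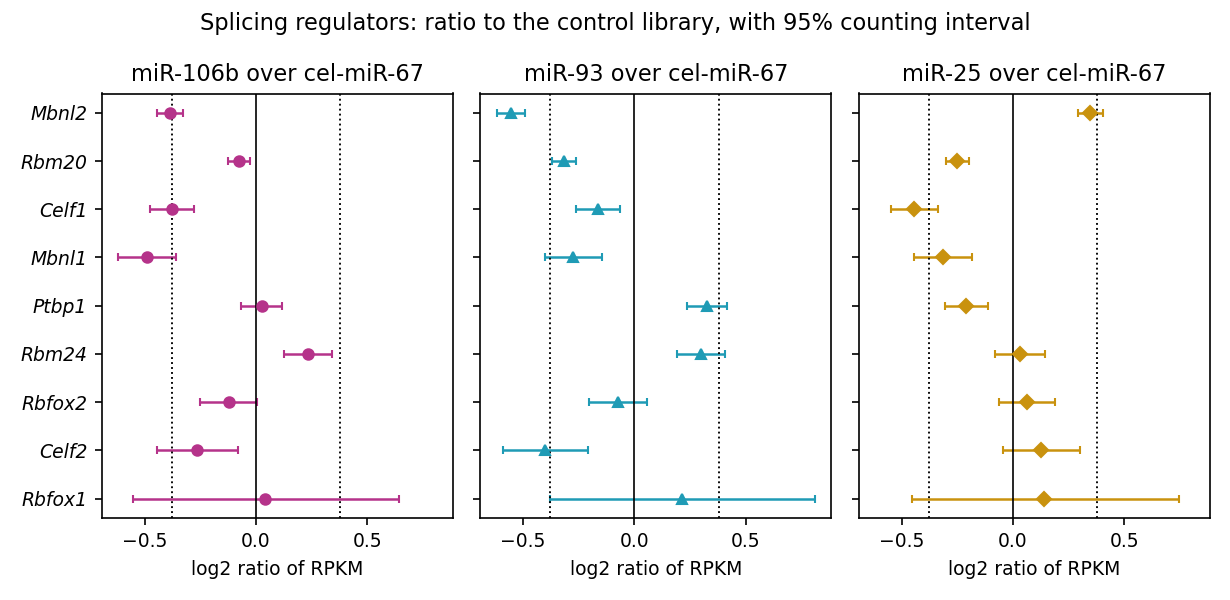
log2 ratio of RPKM of each mimic over cel-miR-67 for the 9 genes; points are the ratio of 2 single libraries, bars the 95% exact interval from the reads (counting error only), dotted lines the 1.3-fold limits. *Mbnl2* lay at -0.39 after miR-106b, -0.55 after miR-93 and 0.35 after miR-25, while the points of *Rbfox2* lay within 0.13 of 0.

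*Rbm20*, the repressor of titin exons, had an RPKM of 39.9 with cel-miR-67, 37.8 after miR-106b, 32.0 after miR-93 and 33.5 after miR-25, from 6038, 7521, 5841 and 6104 reads. The control library was the highest, and none of the mimics reached the 1.3-fold limit. Its log2 ratio to the control was -0.07 after miR-106b (95% exact interval -0.12 to -0.03), -0.32 after miR-93 (-0.37 to -0.26) and -0.25 after miR-25 (-0.30 to -0.20). *Rbm24*, the enhancer of muscle exons, had levels of 19.8, 23.3, 24.4 and 20.2 in the same order of libraries. Here the miR-106b and miR-93 libraries stood above the other two. The log2 ratios were 0.23 (0.13 to 0.34), 0.30 (0.19 to 0.41) and 0.03 (-0.08 to 0.14), so that for miR-25 no difference from the control was detectable at this depth. Both proteins act in striated muscle, and in the miR-25 library the level of *Rbm20* was 0.841 and that of *Rbm24* 1.02 times the control, where the summed cardiomyocyte markers were at 0.521 times. *Myl2* was the largest part of that sum, and the log2 ratios of the 10 markers ran from -4.47 to -0.42 after miR-25. Whether the makeup of the cultures had a part in the *Rbm20* and *Rbm24* ratios was not tested.

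*Mbnl2* was the regulator with the largest differences between libraries. Its RPKM was 42.7 with cel-miR-67, 32.7 after miR-106b, 29.1 after miR-93 and 54.3 after miR-25, from 4430, 4448, 3638 and 6775 reads. Both libraries of the miR-106b/miR-93 seed lay below the control and the miR-25 library above it. The log2 ratio was -0.39 after miR-106b (-0.45 to -0.33) and -0.55 after miR-93 (-0.62 to -0.49), both past the limit, and 0.35 after miR-25 (0.29 to 0.40), a ratio of 1.27 that fell just short of it. *Mbnl1*, the other MBNL gene of the set, had levels of 23.2, 16.5, 19.2 and 18.7 from 981, 917, 977 and 949 reads. All mimics were below the control, and the log2 ratios were -0.49 after miR-106b (-0.62 to -0.36), -0.27 after miR-93 (-0.40 to -0.15) and -0.31 after miR-25 (-0.44 to -0.18). *Mbnl1* was past the limit only after miR-106b. The miR-25 library, with the highest *Mbnl2* level, was also the one with summed smooth muscle markers at 2.74 times the control, and the part of this in the *Mbnl2* level was not tested.

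*Celf1* had an RPKM of 35.5 with cel-miR-67, 27.3 after miR-106b, 31.8 after miR-93 and 26.1 after miR-25, from 1609, 1625, 1733 and 1423 reads. The control was again the highest of the 4 libraries. The log2 ratios were -0.38 after miR-106b (-0.48 to -0.28), -0.16 after miR-93 (-0.26 to -0.06) and -0.44 after miR-25 (-0.55 to -0.34). With miR-106b the ratio of 0.770 lay just inside the 1.3-fold limit. *Celf2*, its relative, had levels of 13.1, 10.9, 9.94 and 14.3 from 484, 529, 442 and 635 reads. As for *Mbnl2*, the miR-106b and miR-93 libraries were lowest and the miR-25 library was highest. The log2 ratios were -0.26 (-0.44 to -0.08), -0.40 (-0.59 to -0.21) and 0.13 (-0.05 to 0.30), and the last interval includes 0.

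*Ptbp1*, the repressor of tissue-specific exons, had levels of 23.1 with cel-miR-67, 23.5 after miR-106b, 29.0 after miR-93 and 20.0 after miR-25, from 1705, 2276, 2574 and 1772 reads. The miR-93 library was the highest and the miR-25 library the lowest. The log2 ratios were 0.02 after miR-106b (-0.07 to 0.12), 0.33 after miR-93 (0.24 to 0.41) and -0.21 after miR-25 (-0.31 to -0.11), none past the limit. *Rbfox2* had levels of 14.6, 13.4, 13.9 and 15.2 from 913, 1101, 1046 and 1146 reads, which was the narrowest range of the well-expressed regulators. Its log2 ratios were -0.12 (-0.25 to 0.01), -0.07 (-0.20 to 0.06) and 0.06 (-0.06 to 0.19), and each interval includes 0. *Rbfox1* had levels of 0.373, 0.384, 0.432 and 0.412 from 43, 58, 60 and 57 reads. The intervals of its log2 ratios were -0.55 to 0.64, -0.38 to 0.81 and -0.46 to 0.75, so that differences of up to about the size seen for *Mbnl2* were not detectable for *Rbfox1* at this depth.

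Comparing the mimics with each other leaves out the shared control library. Between miR-93 and miR-106b, which have the same seed, none of the 8 regulators differed past 1.3-fold, against 7.3% of all genes higher and 8.21% lower after miR-93. The largest of these log2 differences was that of *Ptbp1*, 0.30 higher after miR-93 (0.22 to 0.38). The intervals of 5 of the 8 genes excluded 0, among them *Rbm20* at -0.24 (-0.29 to -0.19), *Mbnl1* at 0.21 (0.08 to 0.35) and *Celf1* at 0.22 (0.12 to 0.31). The share of all genes whose interval excluded 0 was not computed, so this count is no result about the regulators.

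Between miR-25 and miR-106b, 2 of 8 regulators were higher after miR-25 and none lower, against 22.1% and 23.0% of all genes. These were *Mbnl2*, with a log2 difference of 0.73 (0.68 to 0.79), and *Celf2*, with 0.39 (0.22 to 0.56). Between miR-25 and miR-93 the same 2 genes were higher after miR-25, against 22.1% of all genes, *Mbnl2* by 0.90 (0.84 to 0.96) and *Celf2* by 0.53 (0.35 to 0.70). *Ptbp1* alone was lower after miR-25, at -0.54 (-0.62 to -0.45), against 23.0%. Both comparisons use the same miR-25 library. The remaining 5 regulators tested were within the limit in each of these comparisons of mimics.

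Because related regulators share targets or oppose each other, their levels were also set against one another within each library. *Mbnl2* exceeded *Mbnl1* by a factor of 1.84 with cel-miR-67 (95% exact interval 1.72 to 1.98), 1.98 after miR-106b (1.84 to 2.13), 1.52 after miR-93 (1.41 to 1.63) and 2.91 after miR-25 (2.72 to 3.12). The miR-25 library thus had the largest excess of *Mbnl2*, with an interval above those of the other 3 libraries. *Celf1* exceeded *Celf2* by 2.71 (2.45 to 3.01), 2.50 (2.27 to 2.77), 3.195 (2.88 to 3.55) and 1.83 (1.66 to 2.01) in the same order, lowest after miR-25. *Rbm20* exceeded *Rbm24* by 2.01 (1.89 to 2.14), 1.62 (1.54 to 1.71), 1.31 (1.25 to 1.39) and 1.66 (1.56 to 1.76). This ratio was lower in each mimic library than in the control.

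The sum of *Celf1* and *Celf2* was 0.738 times the sum of *Mbnl1* and *Mbnl2* with cel-miR-67, 0.778 times after miR-106b, 0.864 times after miR-93 and 0.554 times after miR-25. Summed MBNL transcripts therefore outweighed summed CELF transcripts per length in each of the 4 libraries, least after miR-93 and most after miR-25. No interval was computed for the sums. For *Mbnl1* alone the order was the reverse. *Celf1* exceeded *Mbnl1* by 1.532 with cel-miR-67, 1.655 after miR-106b, 1.657 after miR-93 and 1.4 after miR-25, each with an interval above 1. The MBNL sum was 65.9, 49.2, 48.3 and 73.0 RPKM and the CELF sum 48.6, 38.3, 41.7 and 40.4 RPKM. *Rbfox2* exceeded *Rbfox1* by factors of 32.1 to 39.1.

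**Figure D3:**
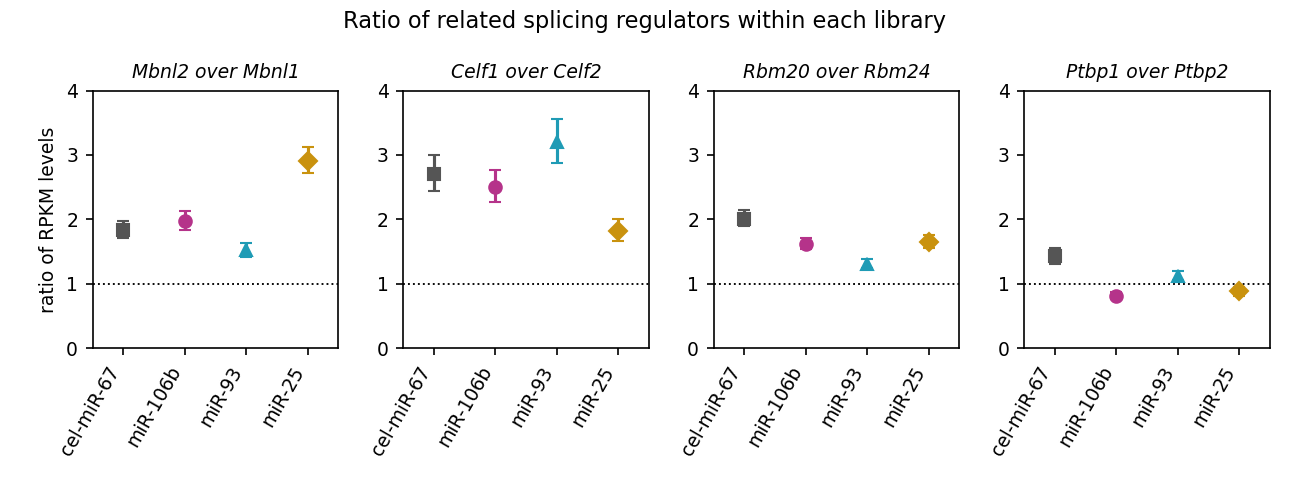
Ratio of the RPKM levels of 2 related regulators within each library; points are single libraries, bars the 95% exact interval from the reads, and the dotted line marks equal levels. *Mbnl2* over *Mbnl1* was highest after miR-25 (2.91), and *Ptbp1* over *Ptbp2* was highest in the control (1.43).

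Relatives of these genes were looked up as a list of 11, of which 8 were found in the values and 5 tested. *Ptbp2*, the neuronal form of PTB whose own transcript PTBP1 is known to repress, had levels of 16.2 with cel-miR-67, 28.8 after miR-106b, 25.8 after miR-93 and 22.7 after miR-25. Every mimic library lay above the control, with log2 ratios of 0.83, 0.67 and 0.49, all past the limit. *Ptbp1* exceeded *Ptbp2* by 1.43 in the control (1.31 to 1.56), whereas the ratio was 0.816 after miR-106b (0.765 to 0.870), 1.12 after miR-93 (1.052 to 1.202) and 0.881 after miR-25 (0.818 to 0.950). *Ptbp3* was higher after miR-93, at 0.42, and after miR-25, at 0.51, and *Mbnl3*, named after its values were seen, was higher after miR-93 at 0.54. *Mbnl3* was near the floor, at 1.31 RPKM in the control and 1.91 after miR-93, from 60 and 105 reads. Past the limit, 1 of the 5 was higher after miR-106b, 3 after miR-93 and 2 after miR-25, where the share among all tested genes would give 0.593, 0.757 and 0.967. With a 1.5-fold limit these counts were 1, 1 and 0, and with RPKM above 2.0 the miR-93 count was 2. None of the 5 was lower with any mimic, against 0.636 to 1.13 at that share, and the lowest ratios were those of *Rbm38*, a relative of *Rbm24*, at -0.13 after miR-106b and -0.22 after miR-25, and of *Raver1*, a PTB cofactor, at -0.13 after miR-93.

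Of 14 other regulators tested that act in muscle or more widely, 2 were higher and none lower after miR-106b, 2 and none after miR-93, and 3 and 3 after miR-25. The share among all tested genes would give 1.66 higher and 1.78 lower of 14 after miR-106b, 2.12 and 2.19 after miR-93, and 2.71 and 3.17 after miR-25, so the higher counts and the miR-25 counts were close to it. *Khdrbs3*, a STAR family splicing factor, had the largest rise after miR-25, from 8.88 to 21.1 RPKM or 1.25 on the log2 scale (1.07 to 1.43), and was at -0.10 and 0.04 after miR-106b and miR-93. *Rbpms2*, an RNA-binding protein of heart and smooth muscle, went from 7.39 to 11.3 after miR-106b, 10.6 after miR-93 and 4.48 after miR-25, with log2 ratios of 0.61, 0.52 and -0.72. *Rbpms* lay the other way, at -0.37, -0.25 and 0.37, within the limit each time. *Tia1*, an RNA-binding protein of stress granules, was the largest rise after miR-93, at 0.62 (0.45 to 0.80). It was also higher past the limit after miR-106b, at 0.42, and after miR-25, at 0.58.

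SR proteins, which bind exonic enhancers, were found for 13 genes and tested for 12. With miR-106b 12 of 12 ratios were above 0 and 3 were past the limit, with a median log2 ratio of 0.28. Of these 3, 2 remained when the interval of the reads had to exclude 0, and 1 remained at a 1.5-fold limit. With miR-93 11 of 12 were above 0, 2 were past the limit and the median was 0.13. With miR-25 5 were above 0 and 7 below, 2 were lower past the limit and the median was -0.09. The share of all tested genes with a ratio above 0 was not computed. Their median log2 ratio was -0.0033 after miR-106b, -0.0018 after miR-93 and -0.0123 after miR-25. At the share among all tested genes 1.42 of 12 would be higher after miR-106b, 1.82 higher after miR-93 and 2.71 lower after miR-25, so the miR-93 and miR-25 counts were close to or under that share. *Srsf9* had the largest rise after miR-106b and miR-93, at 0.72 and 0.63, and *Srsf3* the largest fall after miR-25, at -0.43 (-0.49 to -0.38). *Tra2a* had the highest ratio after miR-25, 0.38, just short of the limit. *Srsf6* had the lowest ratio after miR-106b, at 0.01, and *Srsf5* the lowest after miR-93, at -0.01.

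For hnRNP proteins, many of which silence exons, the medians were 0.20, 0.06 and -0.14 over 15 genes. *Hnrnpa0* was the largest rise with each mimic, with levels of 8.74 in the control, 19.7 after miR-106b, 18.9 after miR-93 and 14.8 after miR-25, and log2 ratios of 1.17 (0.93 to 1.43), 1.11 (0.86 to 1.37) and 0.76 (0.50 to 1.03). It was the only hnRNP gene of the list that was higher past the limit with a mimic. The share among all tested genes would give 1.78 higher of 15 after miR-106b, 2.27 after miR-93 and 2.9 after miR-25. None was lower after miR-106b or miR-93, against 1.91 and 2.34 at that share. With miR-25 2 of 15 were lower, fewer than the 3.39 that the share among all tested genes would give, and *Hnrnph1* fell most, by 0.54 on the log2 scale, while *Hnrnpdl* had the lowest ratio after miR-106b, -0.02, and after miR-93, -0.09. Of 7 kinases that phosphorylate SR proteins, none was past the limit after miR-106b. The share among all tested genes would give 0.83 higher and 0.89 lower. With miR-93, 1 was lower and none higher, against 1.09 and 1.06 at that share. With miR-25, 1 was higher and 2 were lower, against 1.35 and 1.58. The muscle kinase *Srpk3* was lower after miR-93, at -0.51 (-0.64 to -0.38), and after miR-25, at -0.74 (-0.88 to -0.60). Its level was 22.0 with cel-miR-67, 19.7 after miR-106b, 15.5 after miR-93 and 13.2 after miR-25. *Srpk2* was highest after miR-25, at 0.46, and *Clk1* had the lowest ratio after miR-106b, -0.33. The highest kinase ratios with the other two mimics were 0.22 for *Srpk2* after miR-106b and 0.19 for *Srpk1* after miR-93, both within the limit.

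Core spliceosome genes form the machinery that carries out splicing. With miR-106b 3 of 28 tested genes were higher and none lower, with a median log2 ratio of 0.07, where the share among all tested genes would give 3.32 higher and 3.56 lower. None of 27 passed the limit after miR-93, against 4.09 higher and 4.22 lower at that share. Here the median was -0.02 and the range ran from -0.36 for *Snrpd2* to 0.17 for *Snrpd1*. With miR-25 11 of 28 were lower and none higher, or 39.3% against 22.6% of all genes, with a median of -0.25. This was the library with summed cardiomyocyte markers at 52.1% of the control, whose part in the lower levels was not tested. *Snrpe*, an Sm protein of the spliceosomal snRNPs, had levels of 32.0 with cel-miR-67, 55.2 after miR-106b, 31.6 after miR-93 and 16.2 after miR-25. *Snrpd3*, another Sm protein, fell most after miR-25, from 10.98 to 5.47 RPKM or by 1.00 on the log2 scale, where counting error leaves -1.36 to -0.65. The highest ratio after miR-25 was that of *Snrnp70*, at 0.19, and the lowest ratio after miR-106b that of *Sf3b2*, at -0.21.

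**Figure D4:**
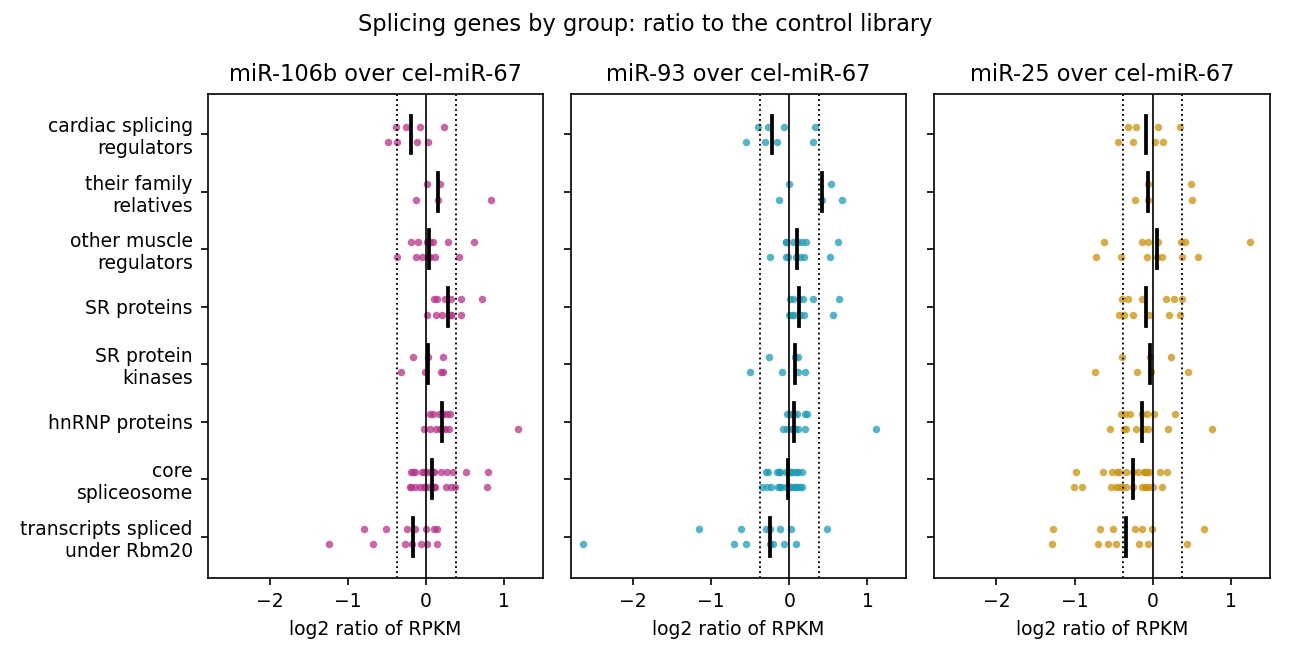
log2 ratio of RPKM of each mimic over cel-miR-67 for the 9 splicing regulators and 7 further gene groups, 1 point per gene with RPKM above 1.0 in both libraries; black bars are medians and dotted lines the 1.3-fold limits. The core spliceosome median was 0.07 after miR-106b and -0.25 after miR-25, and that of SR proteins 0.28 and -0.09.

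Of 15 genes whose transcripts are known to be spliced under RBM20, 14 were found and tested. The gene left out was *Ttn*, the titin gene, whose symbol was either absent or listed more than once. With miR-106b 4 were lower and none higher, after miR-93 5 and 1, and after miR-25 7 and 2, at medians of -0.16, -0.25 and -0.34. The share among all tested genes would give 1.78, 2.19 and 3.17 lower and 1.66, 2.12 and 2.71 higher of 14 in the same order. *Enah*, an actin regulator, had levels of 89.3 in the control, 37.7 after miR-106b, 14.3 after miR-93 and 89.1 after miR-25. Its log2 ratio of -2.64 after miR-93 was the largest of the list, against -1.25 after miR-106b. *Ryr2*, the calcium release channel of the sarcoplasmic reticulum, fell most after miR-25, by 1.29 on the log2 scale, from 88.0 to 35.9 RPKM. *Ryr2* is also in the cardiomyocyte marker list, all 10 members of which were lower past the limit after miR-25. The kinase subunit *Camk2d* was higher after miR-93, at 0.48, and had the highest ratio of the list after miR-106b, 0.14, while its relative *Camk2g* was higher after miR-25, at 0.66. *Rbm20* itself was past the limit with none of the mimics, and the exons used in these transcripts were not analysed here.

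Among the 9 regulators, *Mbnl2* alone had RPKM above 2.0 in all libraries and varied by more than 1.5-fold. *Bscl2*, the gene of seipin, a protein of lipid droplet formation, was among the genes whose 4 log2 RPKM values, centred on their mean, came closest to those of *Mbnl2*. It deviated by no more than 0.03 on the log2 scale in any of the 4 libraries, with levels of 6.84, 5.04, 4.55 and 8.61 in the order used above, with the control first. It was picked for closeness among 9501 genes over 4 libraries, and the likeness is given as a description only.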

How the data were processed

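As the methods state, the authors checked reads with FASTQC, trimmed adaptors with Cutadapt, aligned them to Rnor_6.0 with STAR (version 2.7 in the submitters' processing notes), rounded gene counts and deposited RPKM values computed by edgeR's rpkm function. The program that counted reads on genes is not given in the sources used here. The 4 tables of single samples were identical to the series table, and 176 symbols listed more than once were left out of gene lists.

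Whole reads were recovered here from the RPKM steps: ratios between libraries gave relative library sizes, the size was the largest giving whole gene lengths, and each gene took the smallest whole length that made its reads whole. Simulated libraries were drawn from the control levels at the 4 library sizes, with some genes changed in the miR-106b library. There, reads came out exactly for 96.6% of 10831 genes with 100 or more reads in a library. The levels of the mimic libraries themselves were not simulated. Reads that share a factor in all libraries can come out too small, which widens an interval without moving the ratio.

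Ratios used deposited RPKM without a pseudocount, above 1.0 in both libraries, with the 1.3-fold limit of the study. The methods name an RPKM limit of 2.0. Intervals are 95% exact (Clopper-Pearson) and cover counting error only, not the spread between cultures. Reads without molecular identifiers are not independent molecules, so the intervals may be too narrow even for counting error. No test was possible with 1 library per mimic.

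The 9 genes, the gene lists and the markers were chosen with earlier results of these data known. All 9 genes were named. Of each list the largest rise and fall per mimic were named, and for a regulator varying over 1.5-fold the 2 genes of most similar pattern. A gene that this rule selects is not reported here. Alternatives were the RPKM limits, fold limits of 1.5 and 2, a pseudocount of 0.1 or 1, centring by the median of all genes, and a call that also needs an interval without 0. Gene coordinates were left out because the reference build, GRCr8, differs from that of the values. Scripts ran in Python 3.11.15 using pandas 2.3.3, numpy 2.4.6, matplotlib 3.10.9 and scipy 1.17.1.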

Additional observations from a re-analysis of the deposited data

How the results depend on the processing

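The counts of splicing regulators past the limit, 2 after miR-106b, 2 after miR-93 and 1 after miR-25, depended on the fold limit. With a limit of 1.5-fold or of 2-fold they were 0 for each of the 3 mimics. A pseudocount of 1 RPKM gave 1 with miR-106b, where *Mbnl2* no longer passed, and 1 with miR-93, where *Celf2* no longer passed, and left *Celf1* past the limit with miR-25. The counts were unchanged under the RPKM limit of 2.0, under RPKM above 0 in both libraries, under RPKM above 1.0 in either library with a pseudocount of 0.1, after centring on the median gene, and when the interval of the reads had to exclude no change. Of 108 ratios of single regulators recomputed with a pseudocount of 1 RPKM or after centring, 108 stayed inside their own counting interval. This is a weak check, as both changes are small for genes at these levels and the wide intervals of *Rbfox1* are included. A pseudocount cannot change the sign of a ratio. Centring moved ratios by at most 0.01 on the log2 scale. Among the lists, a limit of 2-fold left 1 core spliceosome gene lower with miR-25 in place of 11. No paired analysis was possible because each mimic has 1 library, and leaving out a library would leave no comparison. Depth limits *Rbfox1* most, and the spread between cultures was not measured.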
